A study of Mus musculus with 32 samples.

Results

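Border and infiltrating macrophage genes are 10 genes picked by name from the 42524 genes counted in mouse spinal cord. Of these, 7 mark the macrophages that live at the borders of the central nervous system (Mrc1, Cd163, Lyve1, Pf4, F13a1, Cbr2 and Stab1) and 3 mark monocytes that enter tissue from the blood (Ccr2, Ly6c2 and Plac8). All 10 were found in the count table by gene ID.

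Border macrophages sit in the meninges, around vessels and in the choroid plexus. They take up proteins, lipids and debris through scavenger receptors, and they form a population apart from the microglia of the parenchyma. Monocytes that carry CCR2 leave the marrow and follow the chemokine CCL2 into inflamed tissue, where they become macrophages and lose their monocyte genes. In mice that carry mutant SOD1, reactive microglia accumulate in the spinal cord as motor neurons die.

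The RNA came from spinal cord of 32 mice in 8 groups of 4. G93A mice, of the strain B6-Tg(SOD1-G93A)1Gur/J, carried a human SOD1 transgene with the G93A change, driven by the human SOD1 promoter and therefore active in all cell types, and their wild-type (WT) littermates on the C57BL/6J background did not. In each genotype, mice drank water with OKN-007, a nitrone compound, or were untreated, and the labels place them at 90 or 155 days. The methods put the earlier age a few days later than the label, and place mice killed at these ages in the cohorts on the higher dose, for which females alone were used. They do not name the cohort of the sequenced mice, so dose, sex and the age at which treatment began can only be inferred from the design. Each mouse gave a single library. The human transgene has no row in a mouse table, so the genotype was checked only through the tissue: at 155 days Gfap, the astrocyte filament gene, had 1770 to 2460 CPM (counts per 1000000 counts, scaled by the trimmed mean of M values) in WT mice and 9550 to 12900 CPM in G93A mice, and Chat, of motor neurons, had 25.7 to 37.5 and 14.2 to 25.1 CPM.

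Libraries held 19701722 to 30138257 counts, so 3 counts stood for 0.0976 to 0.14 CPM. Several libraries stood apart. WT untreated replicate 3 and G93A untreated replicate 10 at 90 days had the highest summed level of Schwann cell and nerve root genes, 1370 and 370 CPM against 138 to 245 CPM in the other 14 mice of that age, and of meningeal fibroblast genes, 193 and 88.0 CPM against 45.2 to 56.9 CPM. Liver genes summed to 188 CPM in G93A untreated replicate 12 and 130 CPM in G93A OKN-007 replicate 15 at 155 days and to 77.7 CPM in WT OKN-007 replicate 6 at 90 days, against a median of 3 CPM over the 32 mice. At 155 days the 8 caudal Hox genes, which mark the level along the cord, summed to 87.7 to 173 CPM in the 8 WT mice and 4.24 to 80.9 CPM in the 8 G93A mice, without overlap. Values with and without these mice, or with the Hox level as a covariate, are given where they touch a member. Since the Hox levels of the genotypes did not overlap at 155 days, genotype and level along the cord cannot be told apart at that age. This holds for every comparison of genotypes that uses mice of 155 days, with the Hox level as a covariate or without it.

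Promoters of 4 members are shown, 3 that were called higher in G93A mice and 1 that was not. The following stretches are the 250 bases before the start site, 5′ to 3′ on the strand of the gene, from RefSeq (GRCm38.p6). Capitals mark GAGGAA or its reverse complement TTCCTC, a core that ETS factors such as PU.1, the master factor of macrophages, can bind. Stab1, Pf4 and Mrc1 were higher in at least 1 comparison of genotypes at 155 days, and Cd163 in none of the main ones.
Stab1, chr14:31168642-31168891, minus strand: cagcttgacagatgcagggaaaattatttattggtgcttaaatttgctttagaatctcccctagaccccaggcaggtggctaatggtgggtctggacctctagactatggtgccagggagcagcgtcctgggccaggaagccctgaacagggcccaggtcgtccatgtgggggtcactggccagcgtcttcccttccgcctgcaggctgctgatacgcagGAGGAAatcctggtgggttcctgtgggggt
Pf4, chr5:90772185-90772434, plus strand: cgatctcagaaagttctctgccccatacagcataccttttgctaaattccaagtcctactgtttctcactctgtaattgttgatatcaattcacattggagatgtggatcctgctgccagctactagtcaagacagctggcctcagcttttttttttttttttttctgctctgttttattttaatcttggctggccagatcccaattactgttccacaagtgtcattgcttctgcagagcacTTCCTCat
Mrc1, chr2:14229164-14229413, plus strand: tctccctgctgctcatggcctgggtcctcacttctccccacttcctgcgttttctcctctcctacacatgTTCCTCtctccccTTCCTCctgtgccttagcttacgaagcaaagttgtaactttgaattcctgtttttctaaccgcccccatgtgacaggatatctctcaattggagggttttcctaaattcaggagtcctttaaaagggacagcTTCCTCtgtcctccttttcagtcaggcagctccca
Cd163, chr6:124304401-124304650, plus strand: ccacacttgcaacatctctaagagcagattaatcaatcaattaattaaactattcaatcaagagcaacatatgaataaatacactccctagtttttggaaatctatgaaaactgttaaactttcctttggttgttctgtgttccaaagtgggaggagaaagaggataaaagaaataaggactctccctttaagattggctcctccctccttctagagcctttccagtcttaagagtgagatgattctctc
Stab1 and Pf4 held the motif once each, Mrc1 held it 3 times, and Cd163 did not hold these letters in the window. F13a1 and Cbr2, which were not called between genotypes at 155 days, held it too. Of the 9 members with an entry, 7 held it at a start site or more (also Ly6c2 and Plac8, but not Cd163 or Ccr2), and so did 8 of their 12 start sites, against 23.3% of all 32851 promoters of the same length. Both strands were searched, also for TGCTGA, a core that MAF factors can bind, which was in the window of 1 member (Stab1) and in 16.1% of all promoters, and for TTGCNNAA, a core of C/EBP factors, which was in that of 2 (Pf4 and Plac8) and in 9.56%. These are matches of letters, and no test was made of them.

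Per length of exon, the members were all low in whole cord. Averaged over the 32 mice, Stab1 had the highest level, 0.806 RPKM (reads per kilobase of exon, on the CPM scale), followed by Pf4 with 0.572 RPKM, Cbr2 with 0.295, Mrc1 with 0.234, Cd163 with 0.196 and F13a1 with 0.188. Lyve1 stood at 0.0844 RPKM, Plac8 at 0.0374, Ly6c2 at 0.0342 and Ccr2 at 0.0284. Several neighbours in this order exchanged places in 1 group or more (Stab1 and Pf4, Cbr2 and Mrc1, Mrc1 and Cd163, Cd163 and F13a1, and the last 3), while Lyve1 stayed under F13a1 and over Plac8 in every group. The depth behind these levels differed widely: Stab1 had 102 to 424 counts per mouse, Mrc1, Cd163 and F13a1 had 13 to 67, and Pf4, Cbr2 and Lyve1 had 0 to 23. Ccr2, Ly6c2 and Plac8 were at 3 counts or fewer in 17, 21 and 27 of the 32 mice, so for all 3 most mice were at the floor of detection, and the label of monocyte gene could not be checked against them. Since these are bulk samples, fewer cells of a type and less RNA per cell cannot be told apart.

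**Figure D1:**
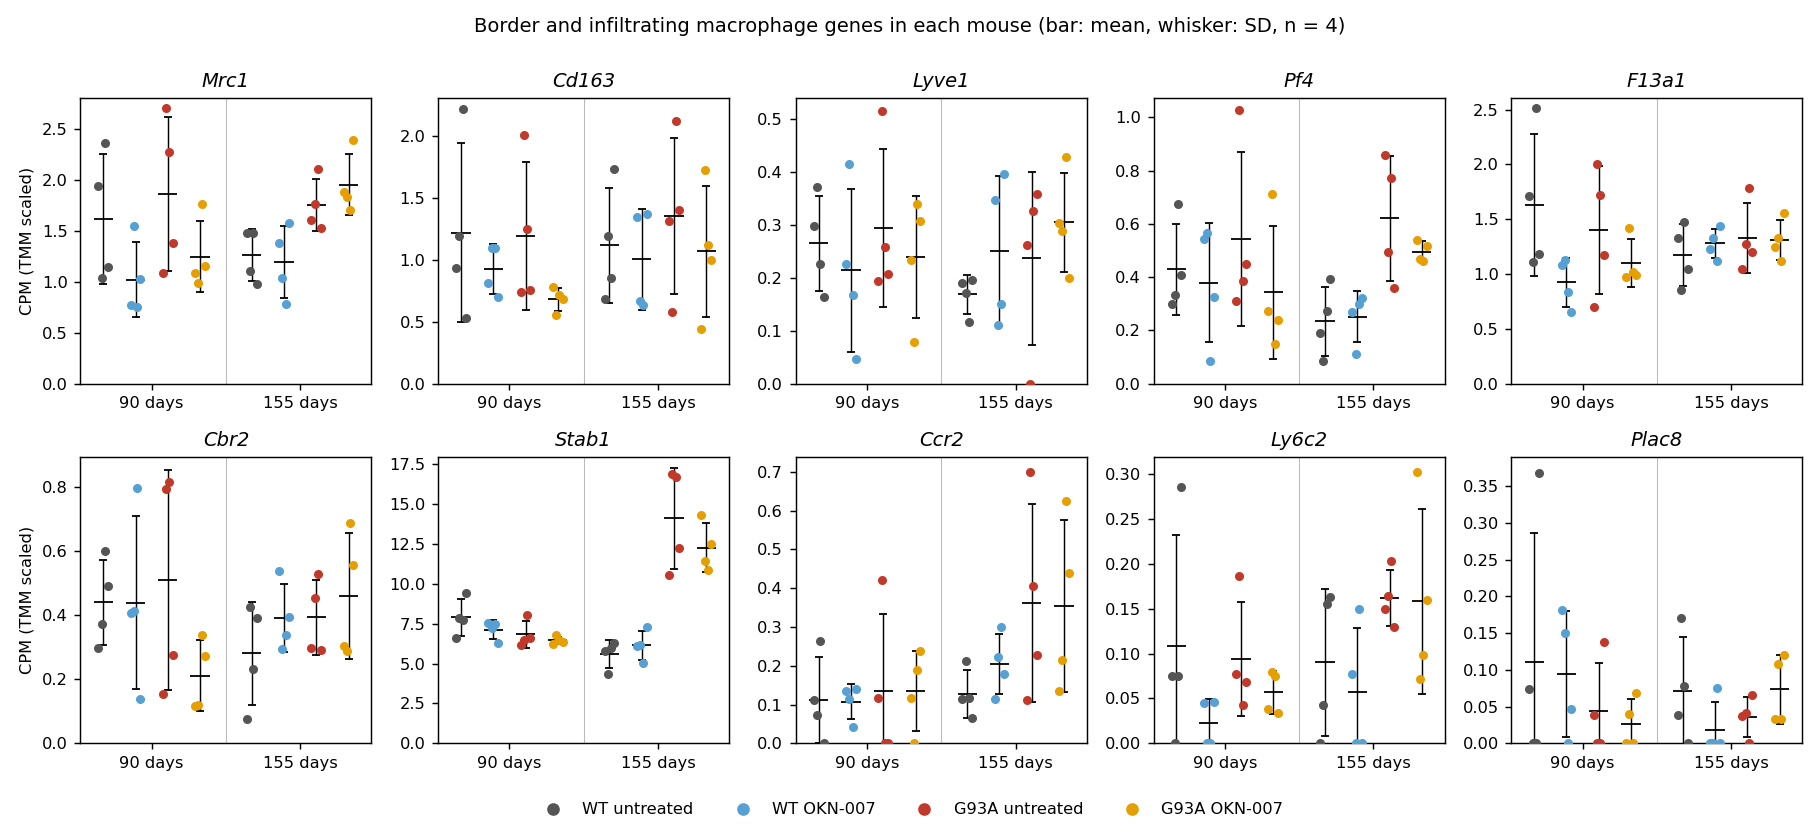
Level of each of the 10 genes in each of the 32 mice, in CPM on a linear axis from 0 with a separate scale in each panel, with 90 days on the left and 155 days on the right. Points are mice, bars the group mean and whiskers the SD of 4 mice. The 8 G93A mice at 155 days lie above all other mice for Stab1 only, between 10.6 and 16.9 CPM.

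A test across all genes was run in 11 comparisons, with edgeR's quasi-likelihood test and Benjamini-Hochberg adjustment. Of the members, 7 passed the filter on low counts at 155 days (all but Lyve1, Ly6c2 and Plac8), 6 at 90 days (there without Ccr2 too), and 8 in the fit of all mice. A gene could pass through the group where it was high: Ccr2, for example, had 2 to 8 counts in each WT mouse at 155 days and 3 to 19 in each G93A mouse.

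At 155 days in untreated mice, 2 of the 7 tested members were higher in G93A than in WT mice (Stab1 and Pf4) and none was lower. Of all 18675 genes tested, 21.3% were higher, 18.2% were lower and 39.5% were called in either direction, so the members' count was close to the background. All 7 had positive log2 fold changes, with a median of 0.52 against 0.00015 for all genes. In the OKN-007 mice of that age 3 of the 7 were higher in G93A mice (Stab1, Pf4 and Mrc1), where 23.3% of all genes were higher, 18.2% lower and 41.5% called, and the median was 0.77 against 0.018. A share of 3 in 7 was above that of all genes but rests on 7 genes, and it was not tested. It also did not hold: each of 8 fits that left out 1 mouse called 2 members, without Pf4.

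Stab1 encodes stabilin-1, a scavenger receptor of macrophages that sinusoidal and lymphatic endothelium carries as well. The gene lies at chr14:31139013-31168641 on the minus strand (GRCm38), and counts were taken over its exons. In untreated WT mice at 155 days it had 4.34, 5.78, 5.99 and 6.28 CPM, and in untreated G93A mice 10.6, 12.2, 16.7 and 16.9 CPM. With OKN-007 the WT mice had 5.02, 6.08, 6.18 and 7.26 CPM and the G93A mice 10.8, 11.4, 12.5 and 14.3 CPM. Every G93A mouse of that age was above every other mouse of the series, the highest of which had 9.44 CPM. The difference was 2.58-fold in untreated mice (log2 fold change 1.37, SE 0.154, adjusted p = 1.03e-06) and 2.10-fold in OKN-007 mice (1.07, SE 0.153, adjusted p = 1.59e-05), larger than the spread between mice in both. Groups that do not overlap, with G93A higher, were found for 15.6% of all genes in the untreated comparison and 20.2% in the OKN-007 comparison. Without the mice with liver transcripts and with the Hox level as a covariate, the log2 fold change of Stab1 was 1.43 and 1.34 in untreated mice and 1.10 and 1.04 in OKN-007 mice, called in each. Neither the Hox fit nor the comparisons without the covariate can tell genotype from level along the cord.

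At 90 days Stab1 lay on the other side of the comparison, though not beyond the spread. The 8 WT mice had 6.29 to 9.44 CPM and the 8 G93A mice 6.14 to 8.05 CPM, and the groups overlapped. Its log2 fold change was -0.19 (SE 0.122, adjusted p = 0.866) in untreated and -0.15 (SE 0.123, adjusted p = 1) in OKN-007 mice. The change in untreated G93A mice was therefore compared between the ages: it was larger at 155 days by 1.54 on the log2 scale (SE 0.196, adjusted p = 6.34e-07). Stab1 was the single member of the 8 tested that was called in that comparison, where 12.9% of all 19829 genes were called in that direction, 8.34% in the other and 21.2% in either, and the median of the members was 0.40 against -0.011 for all genes. The labels name no batch, and age and any batch cannot be told apart.

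Pf4 encodes platelet factor 4, a chemokine of platelet granules that border macrophages also express. The untreated WT mice at 155 days had 0.0852, 0.19, 0.272 and 0.392 CPM (2 to 12 counts) and the untreated G93A mice 0.358, 0.494, 0.772 and 0.86 CPM (11 to 23 counts), so the lowest G93A mouse was within the WT range. The OKN-007 groups did not overlap: the WT mice had 0.111, 0.269, 0.3 and 0.324 CPM and the G93A mice 0.46, 0.467, 0.518 and 0.539 CPM. The same separation was found for 20.2% of all genes. Pf4 rose 2.62-fold in untreated G93A mice (log2 fold change 1.39, SE 0.403, adjusted p = 0.01) and 2.06-fold in OKN-007 G93A mice (1.04, SE 0.407, adjusted p = 0.0472). The second call was weak: it was lost in each of 8 fits that left out 1 mouse, whichever it was (adjusted p 0.0557 to 0.149), with DESeq2 (0.0651), with other size factors (0.0519), without a filter (0.139) and without the mice with liver transcripts (0.0678). With the Hox level as a covariate neither held, at log2 fold changes of 1.24 (adjusted p = 0.106) and 0.90 (adjusted p = 0.238), in a fit with the same limit. Among 8 platelet genes, 7 had too few counts to test at 155 days, among them Ppbp, the neighbouring platelet chemokine gene, with group means of 0.0852 to 0.0955 CPM. Itga2b, the platelet integrin gene, was higher in G93A mice in both comparisons (log2 fold change 0.68, adjusted p = 0.00474, and 0.92, adjusted p = 0.00038). The summed level of the platelet genes, most of it Itga2b, was 4.08 to 7.44 CPM in G93A and 3.33 to 4.77 CPM in WT mice. The genes with too few counts went both ways: in untreated mice Gp9 had means of 0.316 CPM in WT and 0.0665 CPM in G93A mice, and Treml1 0.081 and 0.198 CPM. The part of platelets in the Pf4 difference was not tested.

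Mrc1 encodes the mannose receptor CD206, which clears glycoproteins and is a defining surface marker of border macrophages. Untreated WT mice at 155 days had 0.981, 1.11, 1.48 and 1.48 CPM and untreated G93A mice 1.53, 1.61, 1.77 and 2.11 CPM, which did not overlap. In OKN-007 mice the values were 0.787, 1.04, 1.39 and 1.58 CPM in WT and 1.71, 1.83, 1.89 and 2.39 CPM in G93A. Such a separation, with G93A higher, was found for 15.6% of all genes in the untreated and 20.2% in the OKN-007 comparison. Mrc1 was called only with OKN-007, at 1.71-fold (log2 fold change 0.77, SE 0.223, adjusted p = 0.00901). It missed the threshold in untreated mice at 1.44-fold (0.52, SE 0.225, 95% interval 0.05 to 0.99, adjusted p = 0.0748). The genotype by treatment interaction of Mrc1 was 0.25 (95% interval -0.41 to 0.92, adjusted p = 1), so a difference between the treatments was not shown. With the Hox level as a covariate the OKN-007 value was 0.72 (adjusted p = 0.0919). With or without that covariate, genotype and level along the cord cannot be told apart.

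Ccr2 encodes the receptor that draws monocytes along CCL2. Untreated WT mice at 155 days had 0.0654, 0.114, 0.117 and 0.213 CPM (2 to 5 counts) and untreated G93A mice 0.112, 0.228, 0.406 and 0.7 CPM (3 to 17 counts). In OKN-007 mice the WT values were 0.115, 0.18, 0.222 and 0.3 CPM and the G93A values 0.135, 0.216, 0.438 and 0.624 CPM. The groups overlapped in both comparisons, and 4 of the 8 G93A mice were above all 8 WT mice. Ccr2 missed the threshold in untreated mice, at a log2 fold change of 1.52 (SE 0.602, adjusted p = 0.0519), and in OKN-007 mice, at 0.85 (SE 0.545, adjusted p = 0.228). In the untreated comparison it passed without WT replicate 2 (1.88, adjusted p = 0.037), without G93A replicate 9 (1.83, adjusted p = 0.0186) and without G93A replicate 12, the mouse with most liver transcripts (1.70, adjusted p = 0.0417). At 90 days 12 of the 16 mice were at 3 counts or fewer, and no difference was detectable at this depth.

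When the untreated and the OKN-007 comparisons of genotypes at 155 days were averaged in a single contrast over 16 mice, an analysis added after the data were seen, 4 of the 7 members were higher in G93A mice. They were Stab1 (log2 fold change 1.22, adjusted p = 1.79e-08), Pf4 (1.21, adjusted p = 0.0014), Ccr2 (1.19, SE 0.407, adjusted p = 0.019) and Mrc1 (0.65, SE 0.158, adjusted p = 0.00191). Of all genes 28.8% were higher and 54.7% were called in that contrast. The same 4 were called when no gene was filtered out and all 10 members were tested, with Ccr2 at 1.19 (SE 0.42, adjusted p = 0.0274), while in untreated mice alone Ccr2 missed the threshold without the filter as well (1.53, adjusted p = 0.0829). The same contrast at 90 days called none of the 6 members tested, and 0.0265% of all genes.

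**Figure D2:**
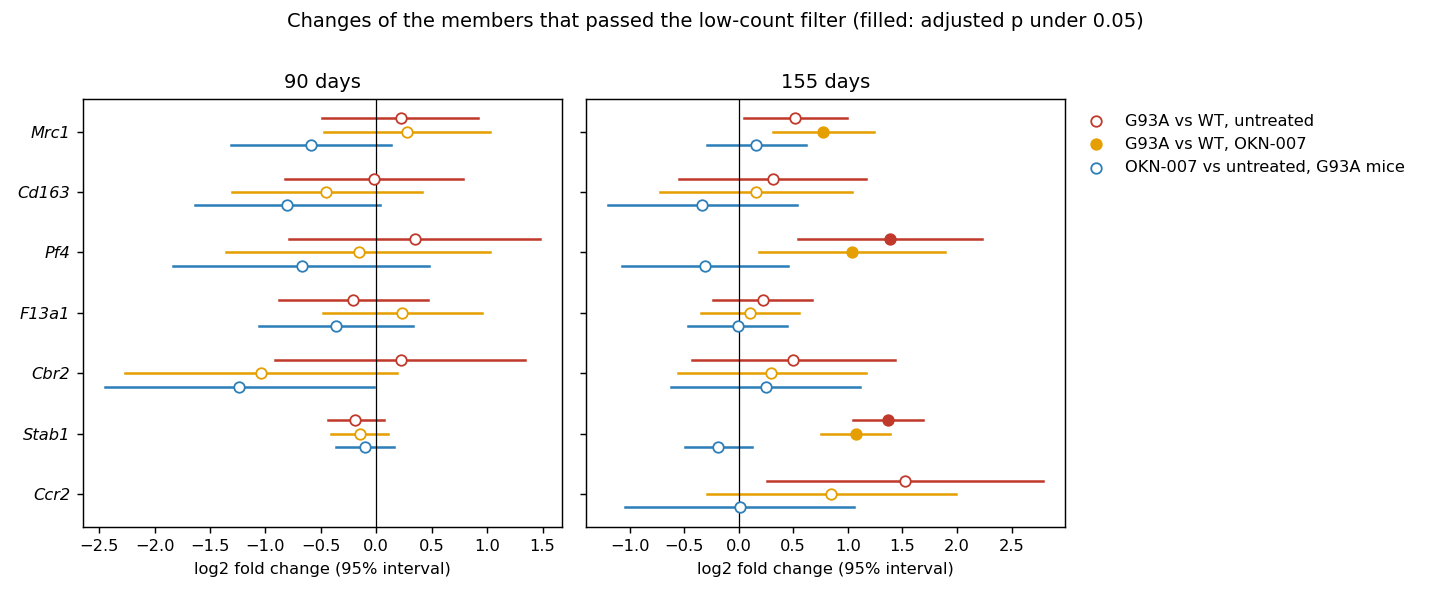
Log2 fold change (x axis, with its 95% interval) of the members that passed the filter on low counts, at 90 days on the left and 155 days on the right. Red and orange are G93A against WT mice without and with OKN-007, blue is OKN-007 against untreated G93A mice, and filled points had an adjusted p under 0.05. Only Stab1, Pf4 and Mrc1 have filled points, all at 155 days and all above 0.

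Cd163, the receptor that takes up haemoglobin bound to haptoglobin, was not called between genotypes at 155 days. Untreated WT mice had 0.685, 0.855, 1.19 and 1.73 CPM and untreated G93A mice 0.576, 1.31, 1.4 and 2.11 CPM, and with OKN-007 the values were 0.637 to 1.37 and 0.438 to 1.73 CPM. Both pairs of groups overlapped widely, at log2 fold changes of 0.31 (SE 0.412, adjusted p = 0.585) and 0.16 (SE 0.422, adjusted p = 0.795). The Cd163 values were also set beside the Hox level, in a split made after the data were seen. Among the 8 G93A mice at 155 days, the 4 with the lowest summed caudal Hox level (4.24 to 30.3 CPM) had 0.438 to 1.31 CPM of Cd163, and the 4 with the highest (62.3 to 80.9 CPM) had 1.12 to 2.11 CPM. These ranges overlapped and were not tested. As deviations from the group means on the log2 scale, Cd163 and the caudal Hox genes had a Pearson correlation of 0.314 over the 32 mice and 0.573 without the 2 mice with most nerve root transcripts, as a description. With the Hox level as a covariate, Cd163 was higher in G93A mice by 1.42 (adjusted p = 0.0201) in untreated and 1.20 (adjusted p = 0.0407) in OKN-007 mice. Since the Hox levels of the genotypes did not overlap at that age, that fit rests on extending the relation beyond the mice that carry it, and genotype and level along the cord cannot be told apart.

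F13a1, which encodes the A chain of coagulation factor XIII and is abundant in border macrophages, hardly differed at 155 days. Its group means were 1.18 ± 0.281 CPM (SD, n = 4) in untreated WT, 1.33 ± 0.321 in untreated G93A, 1.28 ± 0.135 in OKN-007 WT and 1.31 ± 0.183 in OKN-007 G93A mice. The log2 fold changes were 0.22 (95% interval -0.24 to 0.67) and 0.10 (-0.35 to 0.55), so a rise as large as that of Stab1 lay outside both intervals. Cbr2, a carbonyl reductase gene, had group means of 0.282 ± 0.161 and 0.393 ± 0.116 CPM in untreated WT and G93A mice and 0.392 ± 0.106 and 0.46 ± 0.197 CPM in OKN-007 mice. Its intervals were wide, -0.43 to 1.43 around 0.50 and -0.56 to 1.17 around 0.30. Of the 50-base stretches of its transcripts 12.1% also occur in Gm11771, so its counts are less certain than those of Mrc1, Pf4 or Lyve1, which share none.

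Lyve1, the hyaluronan receptor of a subset of border macrophages and of lymphatic endothelium, had too few counts for the test at either age. At 155 days the untreated WT mice had 0.117, 0.17, 0.19 and 0.196 CPM and the untreated G93A mice 0, 0.262, 0.325 and 0.358 CPM. The G93A mouse without a count (replicate 10) also had the lowest Cd163 of its group and was among the 4 G93A mice with the lowest caudal Hox level. With OKN-007 the values were 0.111 to 0.396 CPM in WT and 0.199 to 0.427 CPM in G93A mice, which overlapped. Over all 16 mice Lyve1 had 45 counts in the WT and 61 in the G93A mice.

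Ly6c2 and Plac8, a surface protein gene and a small cysteine-rich protein gene of monocytes, were not tested either. Ly6c2 had 16 counts over the 8 WT mice at 155 days, 3 of which had none, and 35 counts over the 8 G93A mice, which all had at least 2. By mouse it reached 0.163 CPM in WT and 0.303 CPM in G93A mice, and 3 of the 8 G93A mice were above all WT mice. Of its 50-base stretches 14.4% occur in Ly6c1 too, a gene with a mean of 27.4 CPM over the 32 mice, so a few reads from Ly6c1 could weigh heavily in Ly6c2. Ly6c1 itself was not called between genotypes at 155 days, at log2 fold changes of 0.07 (adjusted p = 0.743) and -0.27 (adjusted p = 0.174). Plac8 had 9 counts over the WT and 12 over the G93A mice at 155 days, and no difference was detectable at this depth.

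None of the 6 tested members was called between genotypes at 90 days, with or without OKN-007, and 0% of all 18899 genes were. At an unadjusted p under 0.05 no member passed either, against 5.96% and 3.95% of all genes, and DESeq2 called no member. The members' log2 fold changes ranged from -0.21 (F13a1) to 0.35 (Pf4) in untreated mice and from -1.04 (Cbr2) to 0.28 (Mrc1) in OKN-007 mice, with medians of 0.10 and -0.16. In each untreated group at that age a single mouse had the highest value for several members, though not always far from the next mouse. WT replicate 3 had the highest value of its group for Mrc1 (2.37 CPM), Cd163 (2.22), F13a1 (2.52), Pf4 (0.676), Cbr2 (0.601) and Ccr2 (0.263), and G93A replicate 10 for Mrc1 (2.71 CPM), Cd163 (2.01), F13a1 (2.01), Pf4 (1.03), Lyve1 (0.514), Ccr2 (0.42) and Ly6c2 (0.187). They were the mice with most nerve root and meningeal transcripts, and the part of such tissue in these values was not tested. Stab1 was not raised in them, at 7.7 and 6.49 CPM.

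The comparisons of OKN-007 with untreated mice used the same groups as those of the genotypes. OKN-007 changed no member by the test, in either genotype or at either age, and 0% of all genes were called in the 4 comparisons. At 155 days the log2 fold changes in G93A mice ran from -0.34 (Cd163) to 0.25 (Cbr2), and no member passed an unadjusted p of 0.05 in either genotype, against 4.04% of all genes in G93A and 2.94% in WT mice. For Stab1 the value was -0.19 in G93A mice (95% interval -0.49 to 0.12), which holds no fall as large as its rise in these mice. For Ccr2 the interval was -1.04 to 1.06, so neither a fall nor a rise of 2-fold was outside it. The genotype by treatment interaction was not called for any member at either age, by edgeR or by DESeq2, and none passed without adjustment, against 2.34% of all genes at 155 days and 2.81% at 90 days.

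At 90 days all 6 tested members were lower in OKN-007 than in untreated G93A mice, with a median log2 fold change of -0.63 against -0.0037 for all genes. Cbr2 had 0.155, 0.276, 0.794 and 0.818 CPM in untreated and 0.116, 0.119, 0.272 and 0.338 CPM in OKN-007 mice, which overlapped, and had the largest value, -1.24 (SE 0.578, unadjusted p = 0.0462, adjusted p = 0.837). It was the single member of 6 under an unadjusted p of 0.05, against 5.56% of all genes. Cd163 followed with -0.81 (adjusted p = 0.837), at 0.739 to 2.01 CPM in untreated and 0.553 to 0.776 CPM in OKN-007 mice. In WT mice F13a1 had the largest value, -0.80 (unadjusted p = 0.0269, adjusted p = 0.993), again the single member of 6 under 0.05 without adjustment, against 4.07% of all genes. No member was called by edgeR or DESeq2. Without the mice with most nerve root transcripts, all 6 stayed negative in G93A mice but came closer to 0, with -0.93 for Cbr2, -0.42 for Cd163 and -0.34 for Mrc1, and F13a1 in WT mice was at -0.52 (unadjusted p = 0.121).

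Other genes used as markers of border macrophages and of monocytes were taken from lists that overlap with the members in no gene. Some had far higher levels in whole cord. In untreated WT mice at 155 days Maf had a mean of 87.2 CPM and Vcan 19.8 CPM, against 5.6 CPM for Stab1 and 0.127 CPM for Ccr2. Which cells the counts of these genes came from was not tested. Of 12 further border macrophage genes 8 could be tested, and 6 were higher in untreated G93A mice at 155 days with none lower. Some could be tested only because they were high in G93A mice: the WT means of Ms4a7, Folr2 and Clec4n were under the level of 3 counts, and 3 of the 12 could be tested at 90 days. With no filter and all 12 tested, the same 6 were higher, where 9.21% of all genes were. The difference between this list and the members was not tested. Siglec1, the sialic acid receptor sialoadhesin, had means of 0.165 ± 0.0713 CPM in WT and 5.62 ± 3.03 in G93A mice (log2 fold change 5.12, SE 0.478, adjusted p = 9.43e-08). Ms4a7 had 0.074 ± 0.0547 and 2.97 ± 1.19 CPM (5.25, SE 0.527, adjusted p = 2.42e-07). The endocytic adaptor gene Dab2 rose by 1.47 (SE 0.131) and the scavenger receptor gene Colec12 by 1.55 (SE 0.146), from means of 10.4 and 10.6 CPM, and Folr2 and Clec4n were called with means of 0.524 and 0.415 CPM in G93A mice. Mgl2 (0.47, adjusted p = 0.509) and Maf (0.07, adjusted p = 0.637) were not called. In OKN-007 mice 6 were higher as well, but with Maf (0.39, adjusted p = 0.00464) in place of Folr2 (1.07, adjusted p = 0.123). Clec10a, Fcna, Cd209f and Cd209b had too few counts, with group means of 0.0175 to 0.217 CPM.

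Of 12 further monocyte genes 8 could be tested, of which 6 were higher and 1 was lower in untreated G93A mice at 155 days. Of all genes 21.3% were higher and 18.2% were lower. Ms4a4c could be tested through the G93A mice, since its WT mean of 0.0537 CPM was under the level of 3 counts. With no filter and all 12 tested, the same 6 were higher and 1 was lower, where 9.21% of all genes were higher. Lyz2, the lysozyme gene of all phagocytes, rose from 4.93 to 283 CPM (log2 fold change 5.89, SE 0.272) and Cd52 from 1.15 to 24.1 CPM (4.46, SE 0.247). The integrin gene Itgal rose by 2.60 (SE 0.321), Ms4a4c by 3.19 (SE 0.664), Ifitm6 by 1.48 (SE 0.284) and Vcan, the versican gene, by 0.87 (SE 0.166). Ace fell by 0.48 (SE 0.116, adjusted p = 0.00283). Itga4 was not called (0.08, adjusted p = 0.705), and Chil3, a gene of freshly arrived monocytes, had means of 0.0913 CPM in WT and 0.065 CPM in G93A mice, too few counts for the test. In OKN-007 mice the counts were likewise 6 higher and 1 lower, against 23.3% and 18.2% of all genes.

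The chemokines and growth factors that act on these cells were higher in 5 of 6 tested genes, where 21.3% of all genes were higher. Ccl2 and Ccl7 could be tested through the G93A mice, since their WT means of 0.0724 and 0.0721 CPM were under the level of 3 counts. Ccl8 and Csf2 had too few counts for the test, so the count of 5 in 6 depends in part on the filter. Ccl2, the ligand of CCR2, had 0.0724 ± 0.0954 CPM in untreated WT and 1.21 ± 0.359 CPM in untreated G93A mice at 155 days (log2 fold change 4.12, SE 0.563, adjusted p = 1.2e-05). Ccl12, another ligand, rose by 3.68 (SE 0.427) and Ccl7 by 2.48 (SE 0.736). Csf1 rose by 1.54 (SE 0.0953) and its receptor gene Csf1r by 1.89 (SE 0.111), while Il34, the other ligand of that receptor, was not called (-0.19, adjusted p = 0.21). The values of the ligands stand beside 1.52 for Ccr2 itself. Among 6 genes of haemoglobin clearance, the pathway of CD163, Hmox1, the haem oxygenase gene, rose by 2.87 (SE 0.225) and Lrp1, the haemopexin receptor gene, by 0.59 (SE 0.0897). Blvrb, Slc40a1, Hp and Hpx were not called, the last 2 of them genes that liver expresses strongly. In OKN-007 mice Hpx was called higher too (2.90, SE 0.936, adjusted p = 0.0181) and Hp was at 3.25 (adjusted p = 0.0595). A mouse with liver transcripts was in that G93A group, and its part in these values was not tested.

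Markers of other cells went different ways at 155 days, where 21.3% of all genes were higher and 18.2% were lower in untreated G93A mice. All 9 microglial genes and all 8 genes of myeloid cells in general were higher in untreated G93A mice. Over untreated and OKN-007 mice together, the microglial genes summed to 1110 to 1840 CPM in G93A and 285 to 365 CPM in WT mice. The myeloid genes summed to 291 to 527 and 40.4 to 49 CPM in these mice. The summed level of the 7 border macrophage members, also over both treatments, was 15.9 to 24.3 CPM in G93A and 8.17 to 12.8 CPM in WT mice, most of it Stab1. Of 7 meningeal fibroblast genes tested in untreated mice, Col1a1 (0.67, adjusted p = 0.0193) and Col1a2 (0.38, adjusted p = 0.00232) were higher and none was lower, with a median of 0.07. Their summed levels over both treatments were 56 to 73.3 CPM in G93A and 45.4 to 57.7 CPM in WT mice. Vwf alone rose among 8 endothelial genes, Pdpn alone among 4 lymphatic endothelial genes, and Egr2 alone among 5 Schwann cell genes tested. Cd3g and Cd8a rose among 4 tested T cell genes, and none of 1 tested neutrophil gene rose. Cd3g and Cd8a could be tested through the G93A mice, since their WT means of 0.11 and 0.0588 CPM were at or under the level of 3 counts. Their count depends in part on the filter. The 3 tested dendritic cell genes (Flt3, Zbtb46 and Itgae) were lower in untreated mice, but with OKN-007 Flt3 alone was called. The other dendritic cell genes of the list had too few counts to test. Of 5 tested liver genes none was called in untreated mice. The part of microglia or of any other cell in the values of Stab1, Pf4 and Mrc1 was not tested.

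**Figure D3:**
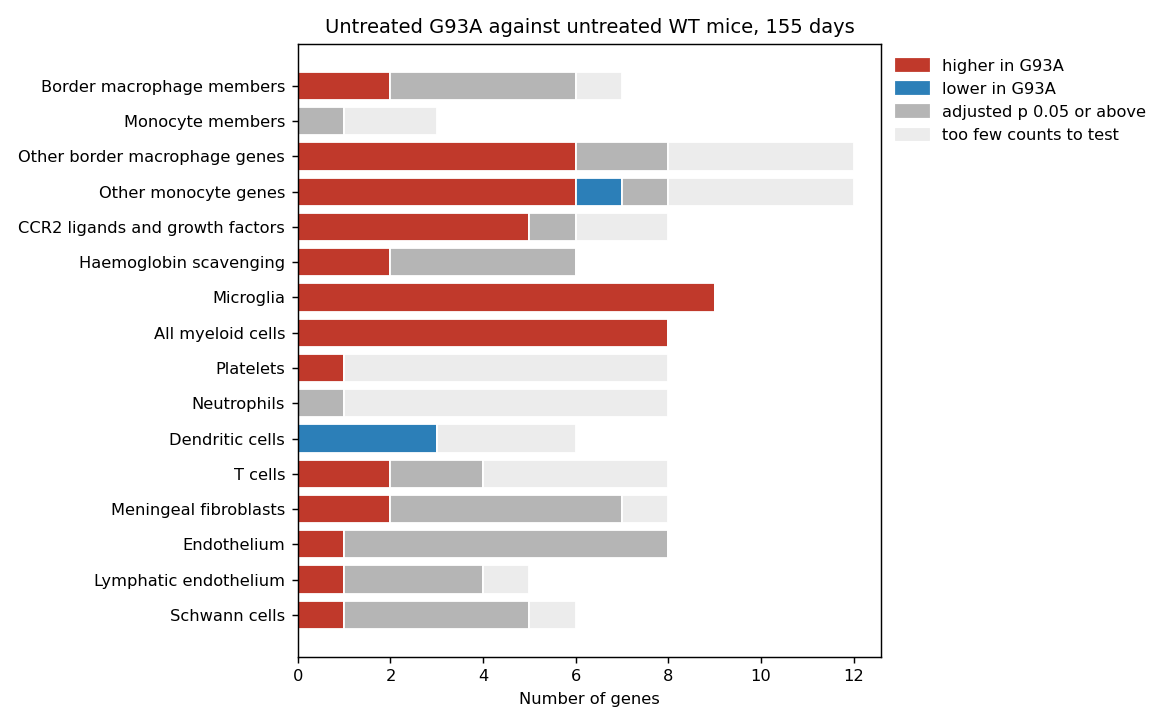
Number of genes (x axis) of each list that were higher (red) or lower (blue) in untreated G93A than in untreated WT mice at 155 days, that missed the threshold (dark grey) or that had too few counts to test (light grey). The members show 2 red genes of 7 and none of 3, beside 6 of 12 in each list of further border macrophage and monocyte genes and 9 of 9 microglial genes.

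Between the ages, the change of untreated G93A mice was larger at 155 days for 4 of 8 further border macrophage genes (Ms4a7, Siglec1, Dab2 and Colec12) and 5 of 9 further monocyte genes, with Ace smaller, against Stab1 alone among the members. Of all genes 12.9% were called in that direction and 8.34% in the other. A gene could enter this fit through the G93A mice at 155 days, where it was high. Ms4a7, for example, had means of 0.074 CPM in untreated WT and 2.97 CPM in untreated G93A mice at that age. The counts for these lists therefore depend in part on the filter, and their difference from the members was not tested. The members' own values were 1.04 for Pf4 (SE 0.699, adjusted p = 0.313), 1.35 for Ccr2 (SE 1.21), 0.41 for F13a1 (SE 0.388), 0.39 for Lyve1 (SE 0.821), 0.33 for Cd163 (SE 0.588), 0.29 for Mrc1 (SE 0.409) and 0.27 for Cbr2 (SE 0.713). All were above 0, and each interval held 0. The 95% intervals of Pf4, Ccr2, Lyve1 and Cbr2 also held the value of Stab1, and those of Cd163, F13a1 and Mrc1 ended below it, at 1.52, 1.20 and 1.13.

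The members did not vary as 1 group from mouse to mouse. Within groups, as deviations of log2(CPM + 0.5) from the group mean over the 32 mice, Mrc1 and F13a1 went together most closely, with a Pearson correlation of 0.736, and 0.625 without the 2 mice with most nerve root transcripts. Cd163 and Lyve1 were next, at 0.592 (0.63 without those mice), and Pf4 and F13a1 had 0.548 (0.365). Among all genes with a mean of 1 CPM or more, the gene most like Mrc1 over the 32 mice was F13a1, and the gene most like F13a1 was Mrc1, with Sdk1 next for both (0.675 and 0.697). Without those 2 mice Gm3696 (0.649) and Klhl32 (0.638) came before F13a1 for Mrc1, and the 3 genes most like F13a1 were Usp38 (0.804), Tmem29 and Nfia. These correlations describe mice that share a cord piece, a library and its depth, and carry no test.

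The other members had other neighbours. Lyve1 was most like Hoxa10 (0.633, and 0.655 without the 2 mice), with Hoxd9 in the third place (0.623). Cbr2 went with Trim14 (0.744) and Cd14 (0.738), which kept the first 2 places without those mice. Stab1 was most like Farp1 (0.727), Tln1 (0.726) and Cdc42bpg (0.721), while without them Map7 (0.758) came first, before Farp1 and Tln1. Its correlation with the summed microglial genes was 0.402. For Cd163 and Pf4 all 3 neighbours changed with the 2 mice. Cd163 had with them Nxph4 (0.736), Il12rb1 (0.711) and Txnip (0.709), and without them Acsm5 (0.812), Tsc22d3 (0.779) and Errfi1 (0.774). Pf4 was most like Gemin2 (0.614) with them and Vhl (0.679) without them. The correlation of Cd163 with the meningeal fibroblast genes was 0.611 and that of F13a1 0.589, and they fell to 0.367 and 0.174 without the 2 mice, which also had the most meningeal transcripts. That of Stab1 was -0.0375 and 0.0409. Ccr2, Ly6c2 and Plac8 have too few counts for a ranking to be read.

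**Figure D4:**
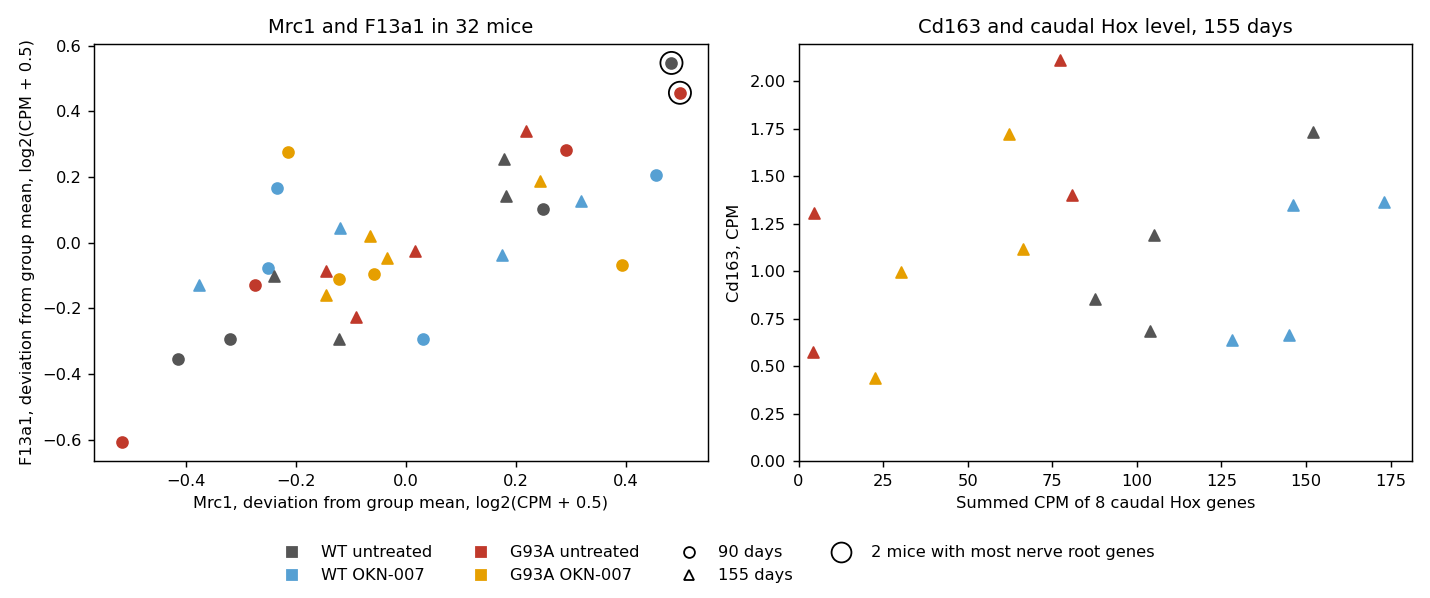
Left, deviation of F13a1 (y axis) against that of Mrc1 (x axis) from the group mean, in log2(CPM + 0.5), for 32 mice (circles 90 days, triangles 155 days), with the 2 mice with most nerve root transcripts ringed at the upper right. Right, Cd163 in CPM against the summed CPM of 8 caudal Hox genes in the 16 mice at 155 days, where G93A mice lie between 4.24 and 80.9 CPM on the x axis and WT mice between 87.7 and 173.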

How the data were processed

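The authors sequenced poly(A)-selected RNA of 25 mg spinal cord pieces and deposited 1 table of raw read counts per gene for 32 mice. The methods name STAR and HTSeq with a GRCm38 annotation and the submitters' processing notes name STAR, featureCounts, GRCm39 and mm39, so which made the counts is not settled. Gene IDs were paired with symbols and positions through GENCODE M21 (GRCm38): 41203 of 42524 matched, and all members did. Mice were grouped by label. Counts were scaled by TMM and tested with edgeR 4.0.16 (quasi-likelihood, filterByExpr, Benjamini-Hochberg, threshold 0.05) in R 4.3.3, at each age over 16 mice and between ages over 32. DESeq2 1.42.0, other size factors, no filter, left-out mice and a caudal Hox covariate were alternatives. Scripts were tested on simulated data. No 2 replicates were identical, and all pairs differed by more than sampling noise (chi-square of at least 3.57 per gene). Labels do not say how mice were housed or prepared in batches, and p-values measure the spread between these mice. Floors cover counting error only.

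The members and gene lists were chosen with earlier results of these data known. All 10 members were named, with the other genes of the lists and the 3 genes most alike each member (Pearson correlation of within-group deviations, mean of at least 1 CPM). Results of 2 genes of these lists are not reported here.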

Additional observations from a re-analysis of the deposited data

Results flagged for a closer look

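F13a1 in G93A OKN-007 replicate 14 at 90 days, at 1.42 CPM (36 counts), stood apart from the other 3 mice of its group, the nearest of which had 1.01 CPM. Plac8 in WT OKN-007 replicate 7 at 155 days, at 0.0749 CPM (2 counts), was the only value above 0 in its group, which is a matter of 2 reads. Of 80 sets of 4 mice examined, 2 were marked in this way, and chance alone would mark about 4. Stab1 differed between the ages in its G93A change, by 1.54 on the log2 scale (edgeR, adjusted p = 6.34e-07), with no change called at 90 days and every G93A mouse above every WT mouse at 155 days.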

How the results depend on the processing

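The counts of members called were kept within 1.5 times under other size factors, no filter, DESeq2, left-out mice and the Hox covariate: 2 or 3 in untreated and 2 in OKN-007 mice at 155 days, 1 for the difference between ages and 0 elsewhere. A contrast averaged over untreated and OKN-007 mice, chosen after seeing the data, called 4 in place of 2 (Mrc1 and Ccr2 added), and the same 4 with no filter on low counts. Which members were called did change: with the caudal Hox level as a covariate Cd163 and Stab1 were called in both comparisons of genotypes at 155 days, in place of Pf4 and Stab1 or Mrc1, Pf4 and Stab1; the cause was not tested. Stab1 was called in every fit run for the 3 comparisons that called it, with log2 values of 1.28 to 1.49, 0.98 to 1.16 and 1.45 to 1.65 when 1 mouse was left out. Leaving out 1 mouse turned the sign of values that were not called: Cd163 between ages ran from -0.13 to 0.73 (negative without WT untreated replicate 3 at 90 days), Cbr2 between ages from -0.04 to 0.60 (negative without G93A untreated replicate 9 at 90 days, at -0.03, or WT untreated replicate 1 at 155 days), and Cd163 in OKN-007 mice at 155 days from -0.18 to 0.41 (negative without WT replicate 7, at -0.01, or G93A replicate 14). Counts of 23 or fewer per mouse limit Pf4, Cbr2, Lyve1, Ccr2, Ly6c2 and Plac8.

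Sample numbers recur at both ages but belong to different mice. Deviations of same-numbered mice had a median correlation of -0.0828 (range -0.232 to 0.319), with 3 of 16 above 0.1 and 3 that were highest with their own number, so the numbers were not taken as pairs. With the sample number as a replicate block, the difference between ages still called 1 member, Stab1, at 1.53 (adjusted p = 4.74e-06).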
